A study of Homo sapiens with 12 samples.

Results

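RNA was sequenced from A375 cells, a BRAF-mutant human melanoma line, and 9 genes for enzymes of nucleotide synthesis were followed across 4 treatments: RRM2, RRM1, TYMS, TK1, PPAT, GART, IMPDH2, CAD and UMPS. These 9 genes were chosen by name from the purine, pyrimidine and deoxynucleotide pathways by a rule that uses no measured value, out of 58347 gene identifiers in the count files, but with earlier results of these data known. The groups were cells exposed for 8 h to the dimethyl sulfoxide vehicle (DMSO), to tretinoin, to vemurafenib or to vemurafenib and tretinoin together, with 3 samples per group and 12 in all. The labels list 5 µM as the dose of each group, also for DMSO, and do not say whether each drug of the combination was at that dose. Vemurafenib is an inhibitor of BRAF carrying the V600 mutation, and tretinoin (all-trans retinoic acid) activates the retinoic acid receptors. All samples came from 1 cell line grown in dishes with serum, without any genetic change made for the study.

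Nucleotides are built either from small precursors (de novo synthesis) or from recycled bases and nucleosides (salvage). PPAT catalyses the committed first step of purine synthesis, GART carries several of the next steps on 1 polypeptide, and IMPDH2 takes the purine precursor inosine monophosphate towards guanine nucleotides. CAD carries the first steps of pyrimidine synthesis and UMPS the last ones, which end in uridine monophosphate. Ribonucleotide reductase, with RRM1 as its large and RRM2 as its small subunit, turns ribonucleotides into deoxyribonucleotides. TYMS makes thymidylate, and TK1 is the cytosolic salvage kinase for thymidine. Several of these genes, RRM2, TYMS and TK1 among them, are known for RNA levels that rise when cells copy their DNA.

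Each sample had between 13510235 and 21534377 counts in all. All 9 genes passed the filter on low counts, with 16740 genes tested, and 8 of them were among the 4185 tested genes with the highest mean level, PPAT being the exception. No pair of replicates of a group agreed within sampling noise (chi-square per degree of freedom 2.69 to 24.42 over 12 pairs), but nothing in the labels says that the 3 samples of a group were separate cultures, so P-values measure the spread between these samples, which may be technical. Of the 7 melanocyte lineage markers checked, SOX10 had no count in any sample and TYR at most 1. DCT had 0 to 18 counts, MLANA 1 to 19 and PMEL 8 to 25, while MITF had 245 to 658 and S100B 84 to 206. Among the markers of other cell types, EPCAM had 1 to 7 counts, PECAM1 5 to 36, PTPRC 13 to 83 and KRT5 25 to 86. KRT14 was the most abundant of these at 64 to 580, which overlaps the ranges of MITF and S100B.

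RRM2, PPAT and UMPS were the genes with the largest differences between treatments, and the DNA just upstream of them is shown here for that reason. A RefSeq promoter entry (GRCh38.p14) was found for 8 of the 9 genes, with none for IMPDH2, and the 250 bases before the listed start were searched on both strands for 4 short motifs. RRM2 held 3 copies of the CCAAT box (CCAAT, present in 32.0% of 35116 promoters) inside a repeated stretch, and 1 ETS-type motif (CCGGAAG, in 8.52%). In the following lines the capitals mark the motif and the flanks are printed as read on the strand of the gene.
RRM2, chr2:10122524-10122543, + strand: ggggtctCCGGAAGgcgccg
RRM2, chr2:10122608-10122627, + strand: aggcgcagCCAATgggaagg
RRM2, chr2:10122638-10122657, + strand: tggcacagCCAATgggaagg
RRM2, chr2:10122665-10122684, + strand: caccaaagCCAATgggaagg

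The CCAAT boxes lay 123 to 119, 93 to 89 and 66 to 62 bases before the RRM2 start. All 4 stretches overlapped an annotated exon, and the annotated RRM2 gene begins further upstream, at chr2:10120698. PPAT held 1 E-box (CACGTG, present in 6.34% of promoters), 182 to 177 bases before its start, in a stretch that overlapped an annotated exon. The site lies within PAICS, the purine synthesis gene that runs the other way from there.
PPAT, chr4:56435785-56435804, - strand: agatttcCACGTGcagcaaa

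PPAT (chr4:56393362-56435615, - strand) and PAICS (chr4:56435741-56464579, + strand) are annotated head to head in GENCODE 29. The 125 bases between them, which belong to no annotated exon, held none of the 4 motifs. UMPS also held none, and the 164 bases of its window that lie outside annotated exons are given for comparison.
PPAT to PAICS, chr4:56435616-56435740, - strand: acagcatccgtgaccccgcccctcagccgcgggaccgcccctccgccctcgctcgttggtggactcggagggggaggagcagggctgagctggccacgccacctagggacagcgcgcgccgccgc
UMPS, chr3:124730202-124730365, + strand: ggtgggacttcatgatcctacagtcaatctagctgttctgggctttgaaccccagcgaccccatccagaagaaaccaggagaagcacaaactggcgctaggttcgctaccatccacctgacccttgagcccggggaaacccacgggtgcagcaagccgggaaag

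Among the other genes, a CCAAT box was also found for RRM1, CAD and GART, and an E2F-type motif (TTTCCCGC, TTTCGCGC, TTTGGCGC or TTTGCCGC, present in 2.79% of promoters) for TYMS alone. A match of letters is a description of the window and does not show that a factor binds there.

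Per base of exon, the 9 genes differed widely in level in the DMSO samples. Levels in this paragraph are read counts per kilobase of annotated exon, scaled to library size (RPKM), mean ± SD of 3 samples, and are given as a description. IMPDH2 was the most abundant at 177 ± 11.7, followed by TK1 at 129.7 ± 7.66. RRM2 (46.6 ± 0.593), RRM1 (39.4 ± 2.52), TYMS (38.6 ± 1.17) and GART (33.3 ± 1.05) formed a middle range. CAD (23.8 ± 1.21), UMPS (16.5 ± 0.613) and PPAT (11.9 ± 0.458) were the lowest. Of these neighbours, RRM1 and TYMS did not differ beyond their spread. In the vemurafenib samples IMPDH2 (199 ± 7.35) and TK1 (106 ± 4.25) were still the highest, and UMPS (10.0 ± 0.196) and PPAT (5.84 ± 0.362) the lowest. RRM2, at 22.96 ± 0.328 as counted, now lay below RRM1 (35.3 ± 0.769), TYMS (30.3 ± 0.567) and GART (25.5 ± 1.66). RRM2 and CAD (22.4 ± 0.547) did not differ beyond their spread. Part of RRM2 and TYMS was not counted, so their places in these orders are not settled. The length used was that of all annotated exons of a gene together, so the other places depend on it too. As CPM in DMSO, without length, UMPS (125) lay above TYMS (95.3), and CAD (200) above RRM1 (164).

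Some fragments could not be assigned to TYMS and RRM2 in any group. TYMS shares 967 of its 2470 exon bases (39.1%) with ENOSF1 on the opposite strand, and fragments over bases of both genes were counted for neither. ENOSF1 itself differed by -0.04 on the log2 scale between vemurafenib and DMSO (adjusted P = 0.72 in edgeR). RRM2 shares 1077 bases (20.2%) with AC007240.1 on the same strand, which had 0 to 17 counts per sample. The levels of TYMS and RRM2 per base are therefore lower bounds, and their order against RRM1, GART, CAD and each other cannot be read from them.

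**Figure D1:**
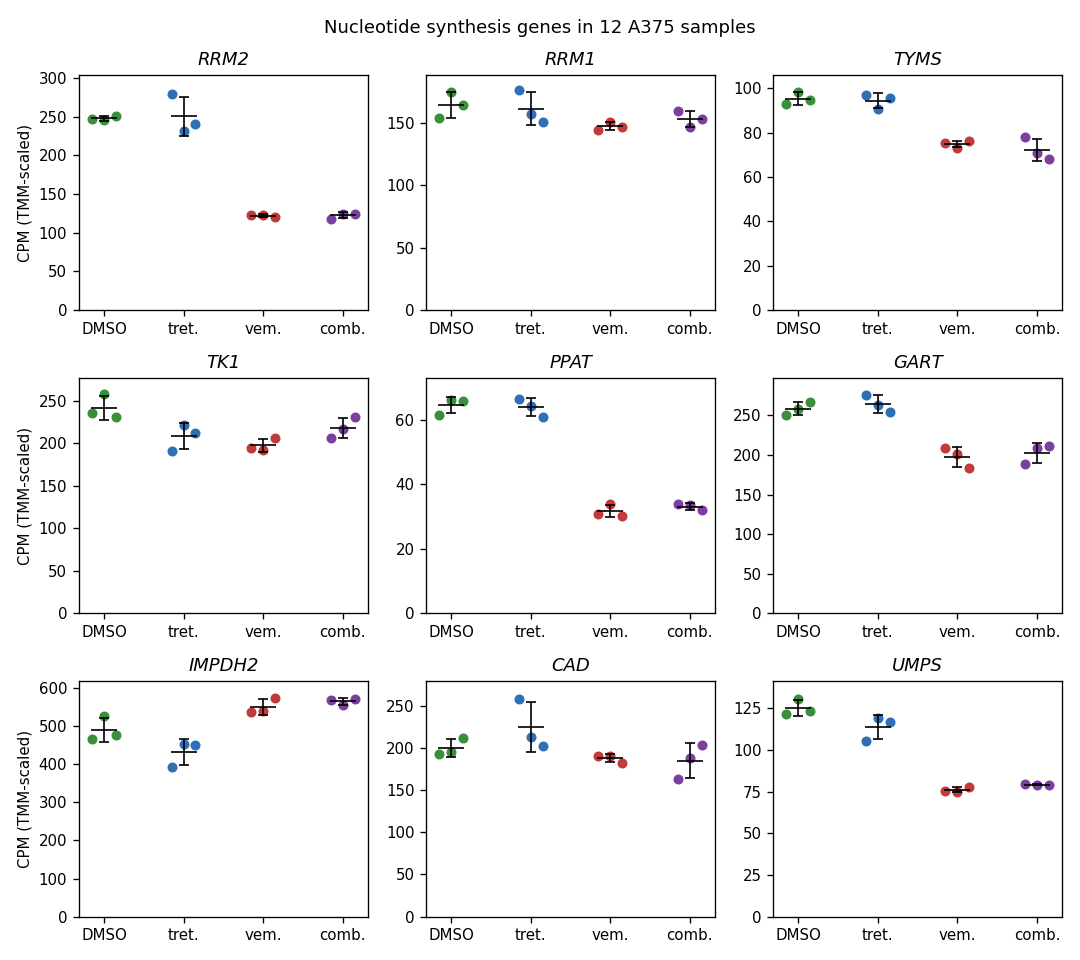
Levels of the 9 nucleotide synthesis genes in 12 A375 samples: the vertical axis of each panel is TMM-scaled counts relative to library size (CPM) from 0, each point is 1 sample, horizontal bars are group means and error bars 1 SD (n = 3), with groups in the order DMSO, tretinoin (tret.), vemurafenib (vem.) and combination (comb.). RRM2, PPAT, UMPS, GART and TYMS were lower in all 6 samples that received vemurafenib than in the 6 that did not. IMPDH2 was higher in all 6 samples that received vemurafenib than in the other 6.

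The comparison of vemurafenib with DMSO asks which of these genes respond to inhibition of mutant BRAF within 8 h. Of the 9 genes, 6 were lower with vemurafenib and none was higher at an adjusted P below 0.05 (edgeR quasi-likelihood test, Benjamini-Hochberg over all genes tested). Over all tested genes, 26.3% were called lower and 26.4% higher, and among the 4185 with the highest mean level 47.4% were called lower and 13.5% higher. The median difference of the 9 genes was -0.35 on the log2 scale, against 0.02 for all tested genes. The 6 were RRM2, PPAT, UMPS, GART, TYMS and TK1, in order of size. RRM1, CAD and IMPDH2 did not pass the test. Samples of both groups were fully apart for all 9 genes, 8 lower and 1 higher, as they were for 30.9% of all tested genes in each direction. Because these are bulk samples, fewer cells of a kind and less RNA per cell cannot be told apart. Levels from here on are TMM-scaled CPM in replicates 1, 2 and 3, and differences are log2 fold changes with their standard error (SE).

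RRM2, the regulated small subunit of ribonucleotide reductase, stood at 247, 245 and 252 CPM in DMSO and at 123, 124 and 120.2 CPM with vemurafenib. The vemurafenib values lay far below the lowest DMSO value, at 49.3% of the DMSO level (log2 fold change -1.02 ± 0.07 SE, adjusted P = 2.3e-09). RRM1, the large subunit, was measured at 154, 175 and 164 CPM in DMSO and 145, 151 and 146 CPM with vemurafenib. Those groups did not overlap, but the gap was small (-0.16 ± 0.07) and did not pass the test over all genes (adjusted P = 0.073). Without DMSO replicate 1 the RRM1 difference was -0.21 (adjusted P = 0.036), and DESeq2 gave -0.17 (adjusted P = 0.048). The ratio of their counts within each sample sets both subunits side by side.

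The ratio RRM2/RRM1, per base of exon and on the log2 scale, was 0.33, 0.14 and 0.26 in the DMSO samples and -0.59, -0.64 and -0.63 in the vemurafenib samples. On the linear scale the mean ratio went from 1.19 to 0.651. Part of RRM2 was not counted in either group, so these ratios describe the shift and not which subunit was more abundant. The difference of -0.86 on the log2 scale was present in every sample, and the exact two-sided permutation test gave P = 0.1, the smallest that 3 samples against 3 allow (0.154 adjusted over 20 ratio tests). RRM2B, the p53-inducible alternative small subunit, was higher with vemurafenib (0.44 ± 0.08, adjusted P = 1.6e-04). It stood at 35.4, 39.8 and 39.4 CPM in DMSO and 54.6, 52.5 and 48.1 CPM with vemurafenib. The log2 ratio RRM2/RRM2B therefore went from a mean of 2.76 to 1.30, again with no overlap (permutation P = 0.1), so that RRM2 remained the more abundant small subunit at 2.46 times the RRM2B level per base.

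TYMS, the target of fluorouracil, was measured at 92.9, 98.5 and 94.6 CPM in DMSO and at 75.2, 73.3 and 76.0 CPM with vemurafenib. All vemurafenib values were below all DMSO values, at 78.5% of the DMSO level (-0.35 ± 0.07, adjusted P = 2.6e-04). TK1 stood at 235, 258 and 231 CPM in DMSO and at 195, 192 and 207 CPM with vemurafenib. Its groups were also apart, at 81.9% of the DMSO level (-0.29 ± 0.07, adjusted P = 0.0031). The log2 ratio of TK1 to TK2, the mitochondrial thymidine kinase, went from 6.17 ± 0.14 to 5.65 ± 0.18 (SD, n = 3, exact permutation P = 0.1). TYMS and TK1 were the called genes that depended on the scaling of the libraries. With scaling by total counts alone, which raised the median of all genes by 0.19 on the log2 scale, TYMS stood at -0.15 (adjusted P = 0.067) and TK1 at -0.09 (adjusted P = 0.22), and RRM1 and CAD turned slightly positive.

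**Figure D2:**
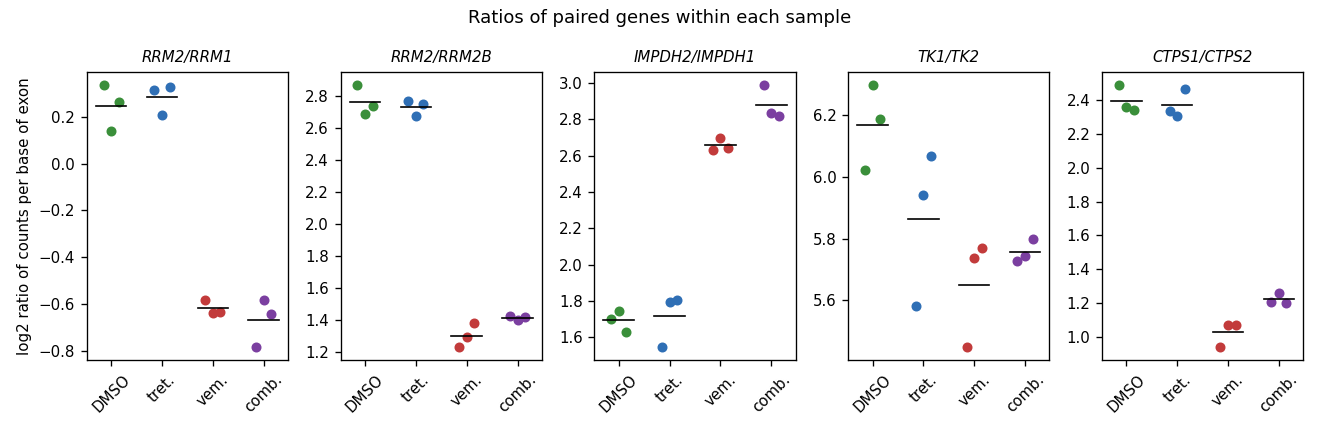
Within-sample ratios of paired enzymes: the vertical axis is the log2 ratio of counts per base of exon (each panel has its own range, which does not start at 0), each point is 1 sample and the horizontal bar is the group mean (n = 3). The ratios RRM2/RRM1, RRM2/RRM2B and CTPS1/CTPS2 were lower, and IMPDH2/IMPDH1 higher, in every sample with vemurafenib than in every sample without it.

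In the purine pathway, PPAT was measured at 61.7, 66.2 and 65.8 CPM in DMSO and 31.0, 34.0 and 30.3 CPM with vemurafenib. This first enzyme of the pathway was at 49.3% of the DMSO level, with a difference as large as that of RRM2 (-1.02 ± 0.07, adjusted P = 2.3e-09). Its head-to-head neighbour PAICS, which acts later in the same pathway, was also lower (-0.61 ± 0.07, adjusted P = 4.8e-07). GART was at 250.4, 258 and 267 CPM in DMSO and 208, 201 and 183 CPM with vemurafenib. It was lower by less than PPAT, at 76.5% of the DMSO level (-0.39 ± 0.07, adjusted P = 1.8e-04).

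IMPDH2 was the only one of the 9 with a positive difference. It was at 466, 528 and 479 CPM in DMSO and at 538, 541 and 575 CPM with vemurafenib. The groups did not overlap, but the difference of 0.17 ± 0.07 did not pass the test (adjusted P = 0.062). Without DMSO replicate 2, the highest of the DMSO samples, it was 0.22 (adjusted P = 0.031), and with scaling by total counts alone 0.36 (adjusted P = 6.7e-05). The related enzyme IMPDH1, which catalyses the same reaction, was lower (-0.79 ± 0.07, adjusted P = 3e-08). It stood at 189, 208 and 205 CPM in DMSO and 115, 110.3 and 122 CPM with vemurafenib. The log2 ratio IMPDH2/IMPDH1 therefore went from 1.70, 1.75 and 1.63 to 2.63, 2.70 and 2.64, without overlap (exact permutation P = 0.1, the smallest possible), or from 3.23 to 6.30 on the linear scale.

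In the pyrimidine pathway, the enzymes at the start and at the end differed. UMPS was at 122, 131 and 123 CPM in DMSO and at 75.5, 75.1 and 77.8 CPM with vemurafenib, or 60.8% of the DMSO level (-0.72 ± 0.06, adjusted P = 5.4e-08). CAD was at 193, 196 and 212 CPM in DMSO and 191, 191 and 183 CPM with vemurafenib. The CAD groups lay next to each other without overlap, and the difference of -0.09 ± 0.09 (95% confidence interval -0.28 to 0.10) did not pass the test (adjusted P = 0.43). CTPS1, which makes cytidine triphosphate from the product of this pathway, was at 51.1% of the DMSO level (-0.97 ± 0.06, adjusted P = 6.2e-10), while its relative CTPS2 was higher (0.40 ± 0.08, adjusted P = 2.7e-04).

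**Figure D3:**
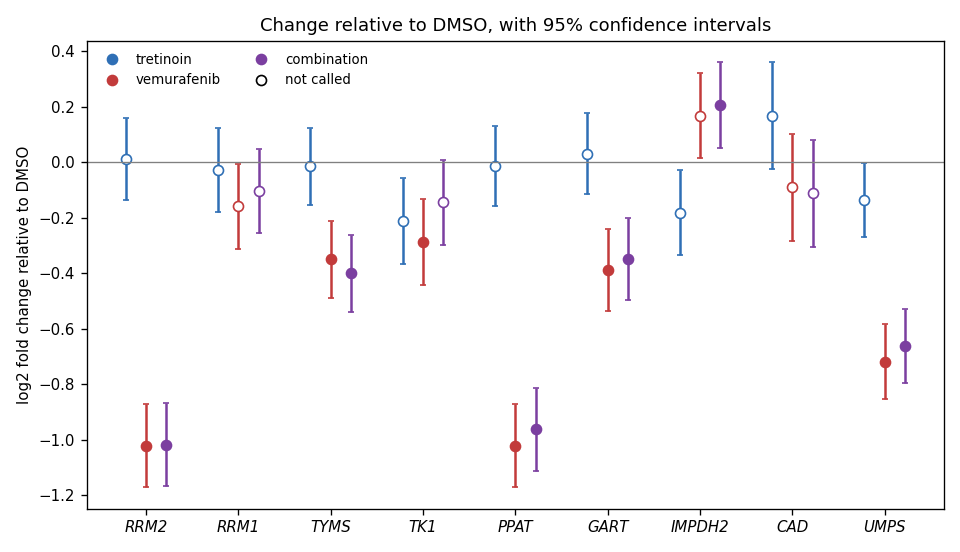
Differences from DMSO for the 9 genes: the vertical axis is the log2 fold change relative to DMSO, points are edgeR estimates from 3 samples per group, bars are 95% confidence intervals, filled points passed the adjusted P threshold of 0.05 and open points did not. RRM2 and PPAT lay near -1.02 with vemurafenib and RRM2 near -1.02 with the combination, while no tretinoin point was filled.

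The wider pathway was described with lists of genes by role, of which 36 are not among the 9. With vemurafenib, 23 of these 36 were lower, 3 were higher and 10 did not pass. All tested genes were called lower in 26.3% and higher in 26.4% of cases. For the 4185 genes with the highest mean level these shares were 47.4% and 13.5%. The median difference of the 36 was -0.29 on the log2 scale, against 0.02 for all tested genes. Of the 13 de novo purine genes, 11 were lower and none was higher, with ADSL (-1.14 ± 0.14, adjusted P = 1.9e-06) and the precursor-making PRPS2 (-1.01 ± 0.06, adjusted P = 3.6e-10) beside PPAT at the low end. The exceptions were IMPDH2 and ADSSL1, the muscle form of adenylosuccinate synthase, at 0.66 ± 0.28 (adjusted P = 0.052). Of the 6 pyrimidine genes, 4 were lower (CTPS1, UMPS, DHODH and CMPK1) and 1 was higher (CTPS2).

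The deoxynucleotide genes moved less evenly. Of 7, 3 were lower (RRM2, TYMS and DUT, which removes dUTP) and RRM2B was higher. Of 11 salvage genes, 7 were lower, led by the uridine-cytidine kinase UCK2 (-1.22 ± 0.06, adjusted P = 6.3e-11), and none was higher. Of 8 folate genes, which supply carbon to purines and thymidylate, 4 were lower and 1 higher, led by the folate carrier SLC19A1 (-1.20 ± 0.09, adjusted P = 3.7e-09). These list counts are to be read against 26.3% lower and 26.4% higher over all tested genes. Among the 4185 genes with the highest mean level, 47.4% were lower and 13.5% higher. With scaling by total counts alone, the lower counts were 1 of 7 deoxynucleotide, 3 of 11 salvage and 2 of 8 folate genes, with 1, 1 and 2 higher in the same order. RRM2, PPAT and UMPS stood with UCK2, SLC19A1, ADSL and CTPS1 at the low end of these lists, and TYMS, TK1 and GART differed by less.

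**Figure D4:**
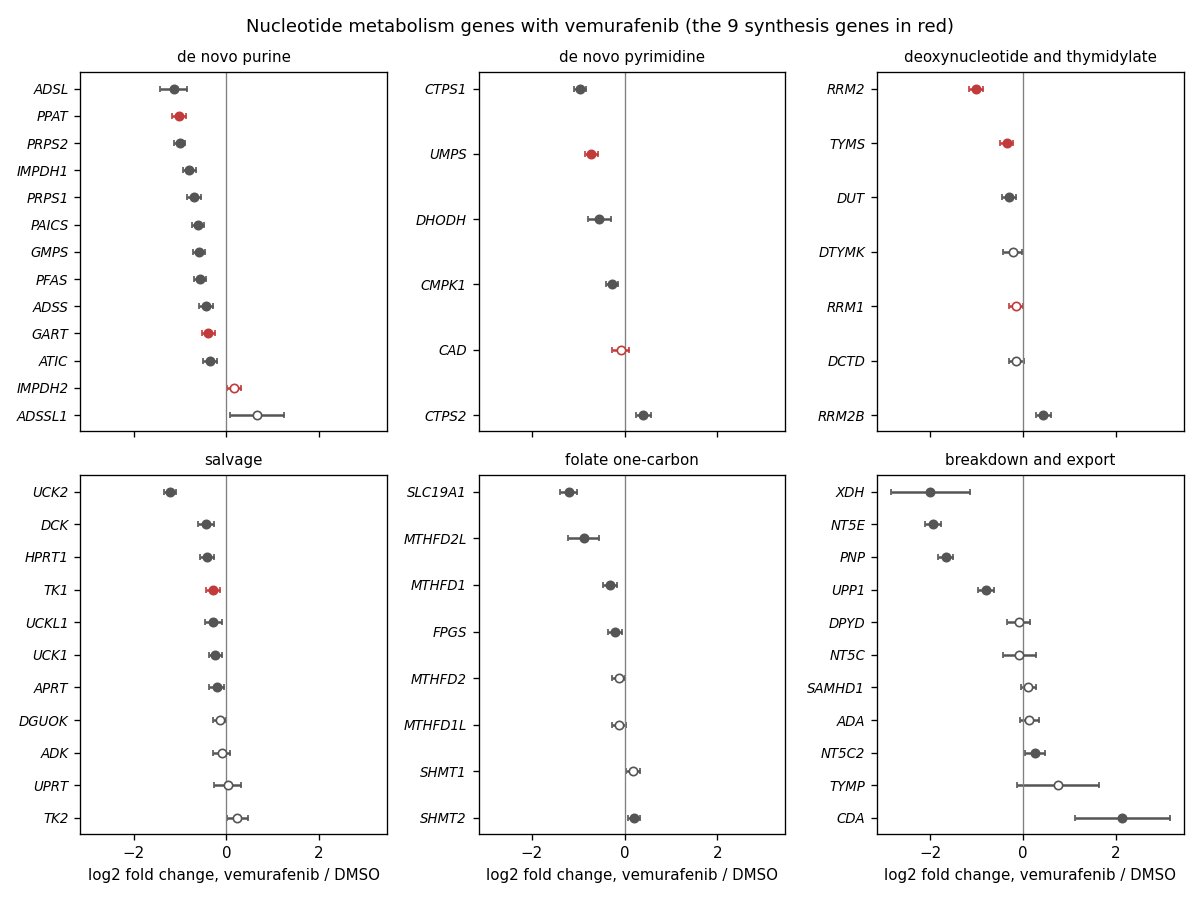
Differences between vemurafenib and DMSO for the listed nucleotide genes by role: the horizontal axis is the log2 fold change, points are edgeR estimates from 3 samples per group with 95% confidence intervals, filled points passed the adjusted P threshold of 0.05, and the 9 synthesis genes are in red. Most de novo purine points lay left of 0, while CTPS2 and RRM2B lay to the right.

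Markers of the S phase, when DNA is copied, moved in the same direction. All 10 of the S phase markers checked (such as MCM2, PCNA and CDC6) were lower with vemurafenib, with a median of -0.70 on the log2 scale, and their summed level went from 2316 to 2377 CPM in DMSO to 1463 to 1473 CPM. Of 10 markers of G2 and mitosis, 4 were lower, 3 higher and 3 did not pass, with a summed level of 2208 to 2342 CPM in DMSO and 2231 to 2374 CPM with vemurafenib. With scaling by total counts alone that split turned to 1 lower and 5 higher. Over all tested genes the main fit called 26.3% lower and 26.4% higher. The summed level of the 9 synthesis genes went from 1822 to 1955 CPM to 1581 to 1598 CPM. The summed melanocyte lineage markers were at 25.9 to 30.8 CPM in DMSO and 42.1 to 44.0 CPM with vemurafenib. Of the 3 that were tested, MITF was called higher (0.88 ± 0.10, adjusted P = 1.3e-06), while S100B (0.02, adjusted P = 0.90) and PMEL (-0.52, adjusted P = 0.22) did not pass. The 5 markers of other cell types summed to 13.9 to 19.4 CPM in DMSO and 32.8 to 35.5 CPM with vemurafenib. Of the 4 that were tested, KRT14 (1.24 ± 0.21, adjusted P = 7e-05) and PTPRC (1.36 ± 0.32, adjusted P = 0.0016) were called higher, and KRT5 (0.32, adjusted P = 0.44) and PECAM1 (-0.83, adjusted P = 0.12) did not pass. The part of these shifts in the differences of the synthesis genes was not tested.

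The combination was compared with DMSO to ask whether the response persisted when tretinoin was present. Of the 9 genes, 5 were lower and 1 was higher, against 26.5% of all tested genes called lower and 27.1% higher, and 47.2% and 14.3% of the 4185 genes with the highest mean level. Samples were apart for 6 lower genes and 1 higher gene, against 30.5% of all tested genes lower and 30.9% higher. This comparison uses the same DMSO samples as the vemurafenib comparison, so the values are given side by side and are not an independent repeat. RRM2 was at 118, 125 and 125 CPM with the combination, or 49.4% of the DMSO level (-1.02 ± 0.07, adjusted P = 2.1e-09). PPAT was at 33.9, 33.5 and 32.0 CPM, or 51.3% of the DMSO level (-0.96 ± 0.07, adjusted P = 3.8e-09). UMPS was at 79.5, 78.9 and 79.1 CPM, or 63.2% (-0.66 ± 0.06, adjusted P = 1.4e-07). For these 3 genes every combination sample lay below every DMSO sample by a wide margin.

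TYMS, at 77.8, 70.8 and 68.1 CPM, was lower than in DMSO (-0.40 ± 0.07, adjusted P = 6.2e-05). GART, at 189, 209 and 211 CPM, was lower too (-0.35 ± 0.07, adjusted P = 4.6e-04). TK1 was at 207, 217 and 231 CPM, just under the DMSO samples, and its difference of -0.14 ± 0.07 did not pass the test (adjusted P = 0.10). CAD (-0.11 ± 0.09, adjusted P = 0.32) and RRM1 (-0.10 ± 0.07, adjusted P = 0.24) did not pass either, and their groups overlapped.

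IMPDH2 was the gene called higher with the combination, at 571, 556 and 571 CPM (0.21 ± 0.07, adjusted P = 0.024). Each combination sample was above each DMSO sample, but the call was thin. It was lost without combination replicate 1 (0.20, adjusted P = 0.057), combination replicate 2 (0.21, adjusted P = 0.056), combination replicate 3 (0.19, adjusted P = 0.076), DMSO replicate 1 (0.16, adjusted P = 0.11) or DMSO replicate 3 (0.18, adjusted P = 0.099), and with no filter on low counts (0.20, adjusted P = 0.066). IMPDH1 was lower (-0.98 ± 0.07, adjusted P = 2e-09), and the log2 ratio IMPDH2/IMPDH1 was 2.99, 2.83 and 2.82, above every DMSO and every vemurafenib sample. Against vemurafenib this ratio differed by 0.22 (exact permutation P = 0.1, 0.154 adjusted over the 20 ratio tests). Neither gene was called in that comparison (IMPDH1 -0.18, edgeR adjusted P = 0.18, and IMPDH2 0.04, adjusted P = 0.91). The ratio RRM2/RRM1 was -0.79, -0.59 and -0.64, below every DMSO sample and overlapping the vemurafenib samples.

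Among the 36 other pathway genes, 23 were lower and 6 higher with the combination, with a median of -0.32. Over all tested genes 26.5% were called lower and 27.1% higher. For the 4185 genes with the highest mean level the shares were 47.2% and 14.3%. All 10 S phase markers were again lower (median -0.64), with a summed level of 1551 to 1584 CPM. Of the other lists, 11 purine genes were lower and 2 higher, and 4 pyrimidine genes were lower and 1 higher. ADSSL1 was the higher purine gene beside IMPDH2 (0.66 ± 0.27, adjusted P = 0.049), a call that was lost under 8 of 13 alternatives (adjusted P from 0.017 to 0.16).

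Tretinoin alone was compared with DMSO to see whether the retinoid moved these genes by itself. In edgeR none of the 9 was called in either direction, against 2.2% of all tested genes lower and 3.48% higher, and 3 had an unadjusted P below 0.05. Those were TK1 (191, 222 and 213 CPM, -0.21 ± 0.07, adjusted P = 0.10), IMPDH2 (393, 453 and 451 CPM, -0.18 ± 0.07, adjusted P = 0.15) and UMPS (106, 119 and 117 CPM, -0.14 ± 0.06, adjusted P = 0.20). All 3 had every tretinoin sample below every DMSO sample, and 12.9% of all tested genes did so. DESeq2 called TK1 lower (-0.23, adjusted P = 0.048) and no other of the 9.

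The remaining genes overlapped between tretinoin and DMSO. RRM2 was at 279, 232 and 240.2 CPM (0.01, 95% confidence interval -0.13 to 0.16), so a change of the size seen with vemurafenib lay outside the interval. PPAT was at 66.6, 64.4 and 60.9 CPM (-0.01, -0.16 to 0.13), TYMS at 97.0, 90.7 and 95.5 CPM (-0.01, -0.15 to 0.12) and GART at 276, 263 and 254 CPM (0.03, -0.12 to 0.18). RRM1 was at 176, 157 and 150.2 CPM (-0.03, -0.18 to 0.12). CAD, at 259, 214 and 203 CPM, had the largest positive estimate (0.17, -0.02 to 0.36, adjusted P = 0.29). Tretinoin replicate 1 had the highest value of its group for RRM1, RRM2, CAD, GART, TYMS and PPAT and the lowest for TK1, IMPDH2 and UMPS. Of the 36 other pathway genes, 1 was called lower, the mitochondrial folate enzyme MTHFD1L (-0.28 ± 0.07, adjusted P = 0.025), as were 2.2% of all tested genes.

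The combination was then compared with vemurafenib, which asks what tretinoin adds. None of the 9 genes was called in edgeR or in DESeq2, none had an unadjusted P below 0.05, and of all tested genes 2.2% were called lower and 2.27% higher. The estimates ran from -0.05 for TYMS to 0.14 for TK1. TK1 (95% confidence interval -0.01 to 0.30, adjusted P = 0.40) and UMPS (0.06, -0.08 to 0.19, adjusted P = 0.81) had every combination sample above every vemurafenib sample, as had 11.7% of all tested genes. For RRM2 the estimate was 0.00 with an interval of -0.15 to 0.15, and for TYMS the interval was -0.19 to 0.09. RRM1 (0.06, -0.10 to 0.21), PPAT (0.06, -0.09 to 0.21), GART (0.04, -0.11 to 0.19), IMPDH2 (0.04, -0.12 to 0.19) and CAD (-0.02, -0.22 to 0.17) lay in the same range. In the wider pathway PRPS2 was called higher (0.23 ± 0.06, adjusted P = 0.034), at 71.0, 70.8 and 71.9 CPM against 61.7, 60.0 and 60.1 CPM with vemurafenib. That call was lost without any 1 of the 6 samples compared (0.22 to 0.24, adjusted P from 0.081 to 0.15). It was also lost with the replicate number as a block (adjusted P = 0.081). The same held with no filter on low counts (adjusted P = 0.19) and with scaling by total counts alone (adjusted P = 0.084).

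Against tretinoin, the combination gave 6 lower genes and 1 higher gene of the 9, with 25% of all tested genes called lower and 24.1% higher, and 40.4% and 15.8% of the 4185 genes with the highest mean level. Samples were apart for 5 lower genes and 1 higher gene, against 27.5% and 27.7% of all tested genes. RRM2 (-1.03 ± 0.07, adjusted P = 2e-09), PPAT (-0.95 ± 0.07, adjusted P = 5.2e-09) and UMPS (-0.53 ± 0.06, adjusted P = 2.7e-06) again differed the most. TYMS (-0.39) and GART (-0.38) were lower, and IMPDH2 was higher (0.39 ± 0.07, adjusted P = 2.7e-04). CAD was called lower (-0.28 ± 0.09, adjusted P = 0.017) although its groups overlapped, at 163, 189 and 204 CPM against 259, 214 and 203 CPM. That call was lost without combination replicate 1 (-0.20, adjusted P = 0.10) or tretinoin replicate 1 (-0.17, adjusted P = 0.059), the samples with the lowest and the highest CAD level. The CAD call was also lost in the fit on only the groups compared (-0.268, adjusted P = 0.072) and with total counts only (-0.195, adjusted P = 0.11). RRM1 (-0.08 ± 0.07, adjusted P = 0.41) and TK1 (0.07 ± 0.07, adjusted P = 0.48) did not pass.

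The interaction, the difference between the effect of tretinoin with vemurafenib and its effect without, was called for none of the 9 genes in edgeR or DESeq2, and for 0.424% of all tested genes as lower and 0.382% as higher. An unadjusted P below 0.05 was found for 3 genes, TK1 (0.35 ± 0.10, adjusted P = 0.13), IMPDH2 (0.22 ± 0.10, adjusted P = 0.32) and UMPS (0.19 ± 0.09, adjusted P = 0.31). These are the 3 that had their tretinoin samples below the DMSO samples, and the comparisons share those samples. For RRM2 (-0.01 ± 0.10) and PPAT (0.07 ± 0.10) the estimates were within their standard errors of 0, as were those for TYMS (-0.04 ± 0.09), RRM1 (0.08 ± 0.10) and GART (0.01 ± 0.10). CAD was at -0.19 ± 0.13 (adjusted P = 0.49).

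Across the 12 samples, levels of RRM2 and PPAT ran together, with a Pearson correlation of 0.99 on log2 levels, and UMPS with PPAT at 0.97. GART (0.96) and TYMS (0.95) ran with RRM2 as closely as UMPS did (0.95). These are descriptions: the samples fall into 6 with and 6 without vemurafenib, which sets most of the correlation. Of 13562 protein-coding genes compared, 1010 had a correlation above 0.95 with RRM2, 1000 with PPAT and 845 with UMPS. The closest to RRM2 were ETV5, SPRY4 and NPAS2 (0.996 each). The closest to PPAT were MCL1, MTAP and CDC25A, and to UMPS EIF2S1, TRMT10C and BYSL (0.996 to 0.997). IMPDH2 ran against RRM2 (-0.87), and TK1 was the least like the others, with correlations between -0.08 with CAD and 0.61 with UMPS.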

How the data were processed

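Polyadenylated RNA of 12 A375 samples was sequenced as directional paired-end libraries. The authors aligned reads with STAR 2.5.3a to GRCh38.p10 and deposited raw counts of fragments per gene of GENCODE 27, counted over the union of exons with the strand ignored and not normalized. Gene names, lengths and positions were taken from GENCODE 29, which held 58039 of the 58347 identifiers (45 more were Y copies of pseudoautosomal genes). Groups came from the sample labels.

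Counts were filtered with filterByExpr by group (16740 genes left), scaled by TMM and fitted in 1 quasi-likelihood model with a term per group in edgeR 4.0.16 (R 4.3.3). P-values were adjusted over all tested genes by the Benjamini-Hochberg method, with a threshold of 0.05. The interaction was (combination - vemurafenib) - (tretinoin - DMSO). RPKM was CPM divided by exon length in kilobases. Total counts of 13510235 to 21534377 per sample and a common dispersion of 0.0065 set the precision. On simulated counts for vemurafenib against DMSO with 16740 genes and 200 changed, 169 were recovered with 8 false calls. That simulation gave every gene the dispersion of 0.0065 and changed far fewer genes than were called in the data. It checks the procedure and does not measure the accuracy of the reported calls. Ratios within samples were compared by exact permutation tests. Alternatives were DESeq2 1.42.0, DESeq2 size factors in edgeR, scaling by total counts alone, no filter, a minimum of 10 counts per sample, the replicate number as a block, fits on single pairs of groups, and each sample left out. Exons were compared by blastn 2.17.0 (at least 150 bases at 98% identity), which found stretches shared by TYMS with ENOSF1, RRM2 with AC007240.1 and GART with SON.

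The text gives all 9 genes in every comparison and, from each list of pathway genes, up to 3 called genes with the largest vemurafenib difference and groups apart, besides the second gene of each ratio, PAICS and DHODH. UPP1, ADA, PNP, NT5C2, ADSSL1 and MTHFD1L, and PRPS2 in the combination against vemurafenib, were chosen after their values were seen. One listed deoxynucleotide gene is not reported here and was left out of the list counts. The 9 genes and the lists were chosen with earlier results of these data known. Where RefSeq lists several starts of a gene, the first was used.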

Additional observations from a re-analysis of the deposited data

Results flagged for a closer look

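The uridine phosphorylase gene UPP1, which breaks down uridine and is a listed breakdown gene, differed between drug contexts. The effect of tretinoin with vemurafenib exceeded its effect without by 0.70 on the log2 scale (SE 0.11, edgeR adjusted P = 0.0061). UPP1 was at 78.4, 82.1 and 73.4 CPM in DMSO, 77.1, 94.9 and 91.7 CPM with tretinoin, 41.7, 44.6 and 47.9 CPM with vemurafenib and 83.1, 79.4 and 83.7 CPM with the combination. The vemurafenib samples were below all others, and the combination samples lay in the range of DMSO and tretinoin. The interaction kept its call in each of the 18 alternative fits, with adjusted P from 7.8e-06 to 0.033.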

How the results depend on the processing

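Of 747 values of the 9 genes under the alternatives, 685 kept their direction and their side of the threshold, 12 lost and 9 gained a call, and 41 changed sign. The calls of RRM2, PPAT, UMPS and GART with vemurafenib, and of these and TYMS with the combination, held under every alternative run. Depth limits low genes such as XDH and CDA, with mean counts of 22.5 and 10.4 per sample.

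With total counts only, the split over all genes for vemurafenib moved from 4411 higher and 4400 lower to 6575 and 2628, and for the combination against DMSO from 4537 and 4440 to 6242 and 2916. Of the 9 genes, 1 was then higher with vemurafenib (1 also with a minimum of 10 counts and with only the groups compared) and 2 were higher against tretinoin. Of the other 36 genes, 6 were higher with vemurafenib (6 also with a minimum of 10 counts) and 0 lower with tretinoin. Without the filter, 0 of the 9 and 3 of the 36 were higher with the combination. With tretinoin, DESeq2 called 1 of the 9 and 5 of the 36 lower, and the fit on only the groups compared 0 of the 36. With each sample left out, the 9 genes higher were 0 to 1 with vemurafenib and 0 to 1 with the combination, and of the 36, 3 to 5 were higher with the combination and 0 to 2 lower with tretinoin. The cause was not tested.

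Sign changes of the 9 genes under these alternatives were all in differences that had not passed the test. Under total counts only they were CAD (0.105) and RRM1 (0.037) with vemurafenib, CAD (0.05), RRM1 (0.06) and TK1 (0.018) with the combination, PPAT (0.06), RRM1 (0.048) and TYMS (0.06) with tretinoin, RRM1 (0.012) against tretinoin, RRM2 (-0.029) against vemurafenib, and GART (-0.099), PPAT (-0.033) and RRM1 (-0.025) in the interaction. RRM2 was at -0.001 against vemurafenib with DESeq2 size factors and at -0.003 in DESeq2, at 0.001 in DESeq2 and 0.022 without the filter in the interaction, and at -0.004 in DESeq2 and -0.001 without the filter with tretinoin. With each sample left out, the ranges that crossed 0 were, against vemurafenib, CAD (-0.101 to 0.062), GART (-0.012 to 0.09) and RRM2 (-0.013 to 0.03), in the interaction GART (-0.045 to 0.06) and RRM2 (-0.063 to 0.075), with TYMS from -0.091 to 0, and with tretinoin GART (-0.002 to 0.059), PPAT (-0.044 to 0.019), RRM1 (-0.097 to 0.019), RRM2 (-0.072 to 0.065) and TYMS (-0.035 to 0.015).

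Replicate numbers did not pair the samples (correlation of deviations from group means -0.143 to 0.087 over 18 pairs). With the replicate number as a block, the 9 genes gave the same counts, 6 lower with vemurafenib and 5 lower and 1 higher with the combination, and over all genes 4212 were higher and 4205 lower with vemurafenib. With tretinoin the block moved the calls over all genes from 583 higher and 368 lower to 429 and 219.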

Other observations

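Genes that break down or export nucleosides moved in both directions with vemurafenib. Of 12 listed, 11 were tested, 4 were lower and 2 were higher, with a median of -0.08 on the log2 scale. Both directions were as common over all tested genes, with 26.3% called lower and 26.4% higher. The ecto-5′-nucleotidase NT5E was at 63.5, 70.8 and 75.0 CPM in DMSO and 19.1, 17.2 and 18.1 CPM with vemurafenib (-1.94 ± 0.08, adjusted P = 2.2e-12). The purine nucleoside phosphorylase PNP was at 57.4, 62.3 and 64.4 CPM and 19.1, 19.4 and 19.4 CPM (-1.67 ± 0.08, adjusted P = 1.5e-11). XDH, which makes uric acid, was low throughout, at 1.53 to 2.06 CPM in DMSO and 0.240 to 0.818 CPM with vemurafenib (-1.998 ± 0.405, adjusted P = 4.9e-04), and CDA, which deaminates cytidine, rose from 0.129 to 0.270 CPM to 0.625 to 1.35 CPM (2.14 ± 0.49, adjusted P = 0.0013). NT5C2, the other higher gene, was barely past the threshold (0.25 ± 0.10, adjusted P = 0.049), a call that was lost under 8 of 13 alternatives (adjusted P from 0.0034 to 0.20). With scaling by total counts alone 4 of the 11 were higher.

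Relative to vemurafenib alone, 3 of the 11 breakdown genes were higher with the combination, as were 2.27% of all tested genes. None of the 9 synthesis genes was called, which a share of that size also allows. UPP1 was higher by 0.88 on the log2 scale (SE 0.08, adjusted P = 2.1e-06). The adenosine deaminase ADA was at 41.8, 36.5 and 39.1 CPM against 27.4, 25.7 and 31.5 CPM (0.47, adjusted P = 0.0037). NT5E was higher by 0.30 (adjusted P = 0.045), a call that was lost under 9 of 13 alternatives. Whether breakdown and synthesis genes differ in this response was not tested.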
